A study of Mus musculus with 8 samples.

Results

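The Cyp4a genes examined here encode fatty acid omega hydroxylases, and they were Cyp4a10, Cyp4a14, Cyp4a31, Cyp4a32, Cyp4a12a and Cyp4a12b, taken by gene name from a table of 45706 genes, of which they are 6. The study asked how the liver responds to fasting when the lipid droplet protein perilipin 5 (PLIN5) carries alanine in place of a serine that protein kinase A phosphorylates. RNA sequencing covered the liver of 4 WT mice and 4 SA/SA mice, which carry PLIN5 S155A on both alleles, with 1 library per mouse. All 8 mice were female, C57BL/6J and 4 months old, and all had fasted overnight before harvest. The alanine substitution was introduced with CRISPR-Cas9 and is a knock-in of the whole body, so every tissue of an SA/SA mouse carries it. No fed mice were analysed here, so a level below is a level after fasting and not a response to it.

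Cyp4a enzymes are cytochromes P450 of the endoplasmic reticulum that put a hydroxyl group on the last carbon of a fatty acid. Alcohol and aldehyde dehydrogenases turn the product into a dicarboxylic acid, which peroxisomes shorten, and some of the Cyp4a enzymes act on arachidonic acid. In liver, Cyp4a10 and Cyp4a14 are textbook targets of PPARa, the nuclear receptor that carries the response to fasting, and Cyp4a12a and Cyp4a12b are known as male-predominant forms.

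The total count per library lay between 39709785 and 54540864, and the top 50 genes of a library held 33.7% to 36.0% of it. Values are given as CPM, the usual unit of counts relative to library size, with library sizes adjusted by TMM. The labels name liver and, as cell type, hepatocytes. Summed markers of hepatocytes lay between 97388 and 115827 CPM in WT and between 94025 and 132726 CPM in SA/SA mice. Of the 9 markers listed, 8 were found by gene name, and these 8 were tested. Markers of kidney, the other organ with high Cyp4a expression, summed to at most 2.01 CPM, with Kap, Slc5a2, Umod and Aqp2 at 0 in every library. SA/SA replicate 3 stood apart by its markers of lymphocytes and plasma cells, 7 genes with a sum of 2055 CPM, against 17.7 to 42.6 CPM in the other 7 mice. WT replicate 2 had 40.8 CPM of markers of pancreatic acinar cells, against at most 6.58 CPM elsewhere. Summed markers of Kupffer cells ranged from 145.6 to 354 CPM, those of adipocytes reached at most 0.80 CPM with Lep at 0, and those of skeletal muscle at most 0.81 CPM with Acta1 and Myh4 at 0. In bulk liver, fewer cells of a type and less RNA per cell cannot be told apart.

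The animal numbers in the labels fell into a low range, under 200, and a high range, over 800. Each range held 2 WT and 2 SA/SA mice, replicates 1 and 4 of each genotype being low and replicates 2 and 3 high. What sets the ranges apart is not given in the sources used here. For the members, Plin5, the lists and some further genes, values within each range are given as well.

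The 6 genes lie together on chromosome 4 of GRCm38, at chr4:115299046-115621602 in the GENCODE M21 annotation, a span of 323 kb with 7 protein coding genes. From left to right they are Cyp4a12a (chr4:115299046-115332815), Cyp4a12b (chr4:115411624-115439034), Cyp4a14 (chr4:115486200-115496142), Cyp4a10 (chr4:115518264-115533649), Cyp4a31 (chr4:115563649-115579015) and Cyp4a32 (chr4:115600969-115621602). Cyp4a14 is read from the reverse strand and the other 5 from the forward strand. The 1 protein coding gene between them that is no member, Cyp4a30b, had 0 counts in all 8 libraries, as had Cyp4a29, the outer neighbour of Cyp4a12a. Beyond Cyp4a29, Cyp4x1 reached at most 3 counts in a library. On the other side, Cyp4b1 had 11.6 ± 3.78 CPM in WT and 10.5 ± 3.35 CPM in SA/SA livers (n = 4 each, SD), and Efcab14 had 13.2 ± 0.91 and 12.5 ± 2.21 CPM. Within this stretch of the chromosome, levels thus ran from no count at all to some of the most abundant transcripts of the liver. The processed pseudogene Gm12837 overlaps Cyp4a12b on the opposite strand, and no annotated gene overlaps any of the other 5.

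How far reads can be assigned to a single member depends on how alike the members are. Cyp4a10, Cyp4a31 and Cyp4a32 are near copies, with 96.0% to 97.2% of coding bases the same in each pair. Cyp4a12a and Cyp4a12b share 98.5%, while Cyp4a14 shares between 74.9% and 75.8% with any other member. The stretch of 60 coding bases in which the 3 near copies differ most is shown first, from exon 2 of each gene, with 9 positions at which they are not all alike. Capitals mark bases that differ from Cyp4a10, and all sequences are the transcript strand of GENCODE M21, 5′ to 3′.
Cyp4a10: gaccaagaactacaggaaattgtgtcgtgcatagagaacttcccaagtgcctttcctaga
Cyp4a31: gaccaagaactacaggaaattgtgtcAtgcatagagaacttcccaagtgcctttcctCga
Cyp4a32: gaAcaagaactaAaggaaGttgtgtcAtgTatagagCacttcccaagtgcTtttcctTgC
Cyp4a14: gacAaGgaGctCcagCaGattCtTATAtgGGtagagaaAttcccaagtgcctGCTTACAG
Cyp4a12a: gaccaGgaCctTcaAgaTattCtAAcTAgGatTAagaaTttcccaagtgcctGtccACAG
Cyp4a12b: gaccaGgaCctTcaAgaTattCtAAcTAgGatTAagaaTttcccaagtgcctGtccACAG
These stretches lie at chr4:115519642-115519701 for Cyp4a10, chr4:115565022-115565081 for Cyp4a31, chr4:115602272-115602331 for Cyp4a32, chr4:115300711-115300770 for Cyp4a12a and chr4:115413266-115413325 for Cyp4a12b, all on the forward strand, and at chr4:115494959-115495018 on the reverse strand for Cyp4a14. Cyp4a31 differs from Cyp4a10 at 2 of the 60 bases, Cyp4a32 at 9, Cyp4a12a and Cyp4a12b at 19 and Cyp4a14 at 22.

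The next stretch, from exon 11, is shown because its letters are the same in the 3 near copies and so cannot tell them apart. It lies in a run of 77 bases of this exon that the 3 have in common. That length does not cover reads that cross into a neighbouring exon. Capitals again mark bases that differ from Cyp4a10.
Cyp4a10, Cyp4a31 and Cyp4a32: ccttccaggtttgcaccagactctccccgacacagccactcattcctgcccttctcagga
Cyp4a14: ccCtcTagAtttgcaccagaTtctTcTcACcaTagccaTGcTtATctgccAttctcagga
Cyp4a12a and Cyp4a12b: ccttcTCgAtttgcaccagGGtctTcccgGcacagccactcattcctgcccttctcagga
The positions are chr4:115529451-115529510 (Cyp4a10), chr4:115574899-115574958 (Cyp4a31), chr4:115614829-115614888 (Cyp4a32), chr4:115328935-115328994 (Cyp4a12a) and chr4:115435189-115435248 (Cyp4a12b) on the forward strand and chr4:115489797-115489856 (Cyp4a14) on the reverse strand. The shares that follow are for single reads. As reads came in pairs, the other read of a pair could still tell members apart. Of all windows of 100 bases, the length of a read, 12.7% of the Cyp4a10 transcript, 8.22% of the Cyp4a31 transcript and 20.1% of the Cyp4a32 transcript were present in another member without a mismatch. The share was 35.8% for Cyp4a12a and 36.2% for Cyp4a12b, and 0% for Cyp4a14. The counts of Cyp4a14 thus share no such window with another member, whereas those of the near copies are uncertain where salmon divided shared reads, and their sums are given as well. Of the Cyp4a10 windows, 5.37% were present in Cyp4a31 and 9.8% in Cyp4a32. These shares add to more than 12.7%, so some windows were the same in Cyp4a10, Cyp4a31 and Cyp4a32.

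Cyp4a14 and Cyp4a10 were among the most abundant transcripts of the fasted liver, ranks 12 and 15 of 45706 genes by mean CPM, while Cyp4a31 ranked 2537, Cyp4a32 3521, Cyp4a12a 14954 and Cyp4a12b 17427. Levels of different genes are compared per kilobase of the longest coding transcript, over all 8 mice. Cyp4a14 had 2645 ± 451 CPM per kb (SD, n = 8) and Cyp4a10 had 2602 ± 379, a gap smaller than either SD. Cyp4a32 had 21.9 ± 4.44 and Cyp4a31 19.7 ± 3.49 CPM per kb, again closer than their spread. Cyp4a12a had 0.073 ± 0.052 and Cyp4a12b 0.017 ± 0.025 CPM per kb, and their ranges over the mice overlapped, from 0 to 0.15 and from 0 to 0.070. The 6 genes thus stood in 3 steps of 2 neighbours each, with the steps far apart. In the upper 2 steps the gap between neighbours was smaller than either SD. Between Cyp4a12a and Cyp4a12b, which had few counts, the gap was larger than either SD, although their ranges overlapped. The annotated Cyp4a32 transcript holds 1530 bases, its coding sequence alone, against 2109 to 2509 bases for the others, so its level per kb is set by a shorter model.

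**Figure D1:**
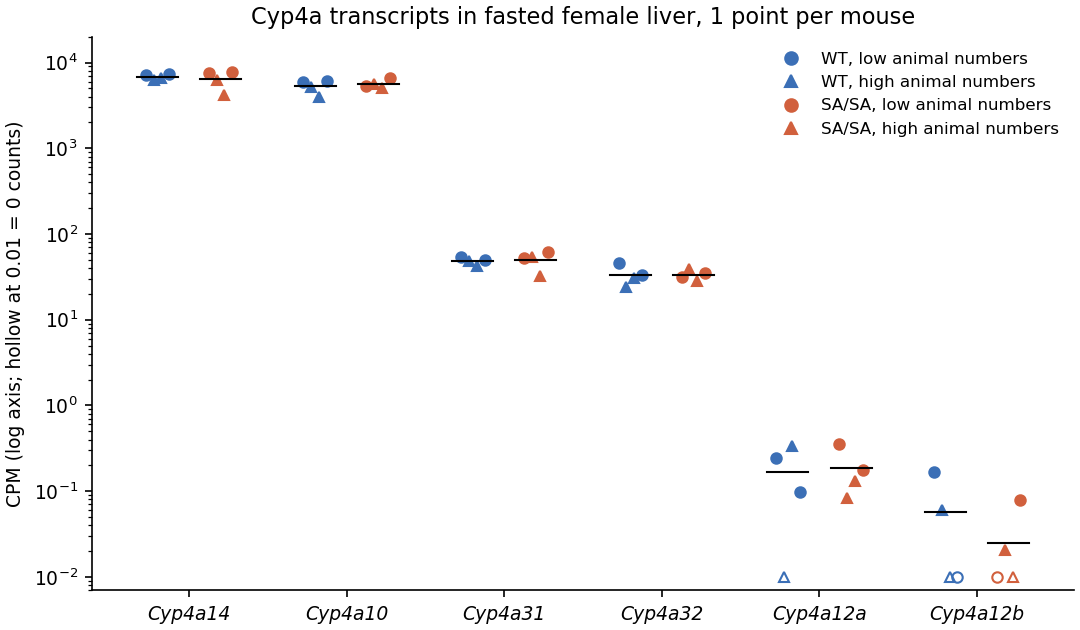
CPM of each Cyp4a gene on a log axis, 1 point per mouse, WT in blue and SA/SA in orange, circles for low and triangles for high animal numbers, with a bar at each group mean. Cyp4a14 and Cyp4a10 lie at or above 3980 CPM in every mouse, Cyp4a31 and Cyp4a32 between 24.2 and 61.0 CPM, and Cyp4a12a and Cyp4a12b at or below 0.35 CPM, with the genotypes overlapping for every gene.

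Cyp4a14 (ENSMUSG00000028715), which turns over medium and long chain fatty acids, was measured at 7210, 6179, 6575 and 7280 CPM in WT replicates 1 to 4. In SA/SA replicates 1 to 4 it was at 7469, 6194, 4208 and 7692 CPM. SA/SA replicate 3 was the lowest of all 8 mice and SA/SA replicate 4 the highest, so the groups overlapped and the SA/SA mice spread more widely. The mean was 6811 ± 528 CPM (SD, n = 4) in WT livers and 6391 ± 1598 CPM (SD, n = 4) in SA/SA livers. The log2 fold change of SA/SA against WT was -0.09 (SE 0.18, 95% interval -0.50 to 0.31, adjusted p = 0.996 by edgeR's quasi-likelihood test). It lay between -0.19 with SA/SA replicate 4 left out and 0.06 with SA/SA replicate 3 left out.

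Cyp4a10 (ENSMUSG00000066072), known for the omega hydroxylation of lauric acid, was at 5959, 5210, 3980 and 6141 CPM in WT replicates 1 to 4. The SA/SA values were 5367, 5626, 5028 and 6597 CPM in the same order. WT replicate 3 was the lowest and SA/SA replicate 4 the highest, with the remaining mice of both genotypes interleaved. The means were 5323 ± 981 CPM in WT and 5655 ± 674 CPM in SA/SA mice. The log2 fold change was 0.09 (SE 0.16, 95% interval -0.26 to 0.43, adjusted p = 0.996 by edgeR). It lay between -0.03 with WT replicate 3 left out and 0.16 with WT replicate 4 left out. The mouse that was lowest in Cyp4a14 was not the one lowest in Cyp4a10, although the genes are neighbours.

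Cyp4a31 (ENSMUSG00000028712), a near copy of Cyp4a10, had 53.8, 47.9, 42.2 and 50.2 CPM in the WT mice and 53.0, 54.5, 32.3 and 61.0 CPM in the SA/SA mice, replicates 1 to 4. As for Cyp4a14, SA/SA replicates 3 and 4 were the lowest and highest of all. Its means were 48.5 ± 4.84 and 50.2 ± 12.4 CPM, with a log2 fold change of 0.05 (SE 0.18, 95% interval -0.35 to 0.45, adjusted p = 0.996 by edgeR). It lay between -0.06 with SA/SA replicate 4 left out and 0.21 with SA/SA replicate 3 left out, and it was -0.01 without WT replicate 3. Cyp4a32 (ENSMUSG00000063929), the other near copy, had 45.8, 24.2, 30.8 and 32.9 CPM in WT and 31.1, 39.5, 28.0 and 35.5 CPM in SA/SA mice. Here the highest and the lowest mouse were both WT, replicates 1 and 2. The means were 33.4 ± 9.06 and 33.5 ± 5.06 CPM, and the log2 fold change was 0.0050 (SE 0.19, 95% interval -0.41 to 0.42, adjusted p = 0.9998 by edgeR). Its sign turned when any of 5 mice was left out, and it lay between -0.12 with WT replicate 2 left out and 0.20 with WT replicate 1 left out.

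Cyp4a12a (ENSMUSG00000066071), the main maker of 20-HETE in the male mouse, had 13, 0, 16 and 5 counts in WT and 19, 4, 5 and 9 counts in SA/SA mice. Cyp4a12b (ENSMUSG00000078597) had 9, 3, 0 and 0 counts in WT and 0, 1, 0 and 4 counts in SA/SA mice. As these copies have many windows in common, their sum is the firmer value, with 22, 3, 16 and 5 counts in WT and 19, 5, 5 and 13 in SA/SA mice. Both genotypes thus had a few counts per library, and the genotypes overlapped. A count of 0 allows up to 3 counts, which is 0.060 CPM for Cyp4a12a in WT replicate 2. Neither gene passed the filter on low counts, so neither was tested, and no difference was detectable at this depth.

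Of the 6 genes, 4 were tested, 0 were called at an adjusted p under 0.05, 0 had an unadjusted p under 0.05 and 0 separated the genotypes without overlap. Over all 14629 genes tested, edgeR called 0 (0%), 497 (3.4%) had an unadjusted p under 0.05, of which 289 (1.98% of all) were lower and 208 (1.42%) higher in SA/SA mice, and 337 (2.3%) did not overlap. The fold change was below 0 for 51.2% of all genes and for 1 of the 4 tested members. DESeq2 called 6 genes with 594 at an unadjusted p under 0.05, limma-voom called 0 with 466, and neither called a Cyp4a gene. The exact permutation test of log2 CPM, two-sided, gave p = 0.771 for Cyp4a14, 0.629 for Cyp4a10, 0.971 for Cyp4a31 and 0.943 for Cyp4a32, where the smallest p that 4 mice against 4 allow is 0.0286. As folds, the 95% intervals were 0.709 to 1.24 for Cyp4a14, 0.835 to 1.35 for Cyp4a10, 0.786 to 1.36 for Cyp4a31 and 0.751 to 1.34 for Cyp4a32. Folds inside these intervals could not be told from 1 with 4 mice per genotype.

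**Figure D2:**
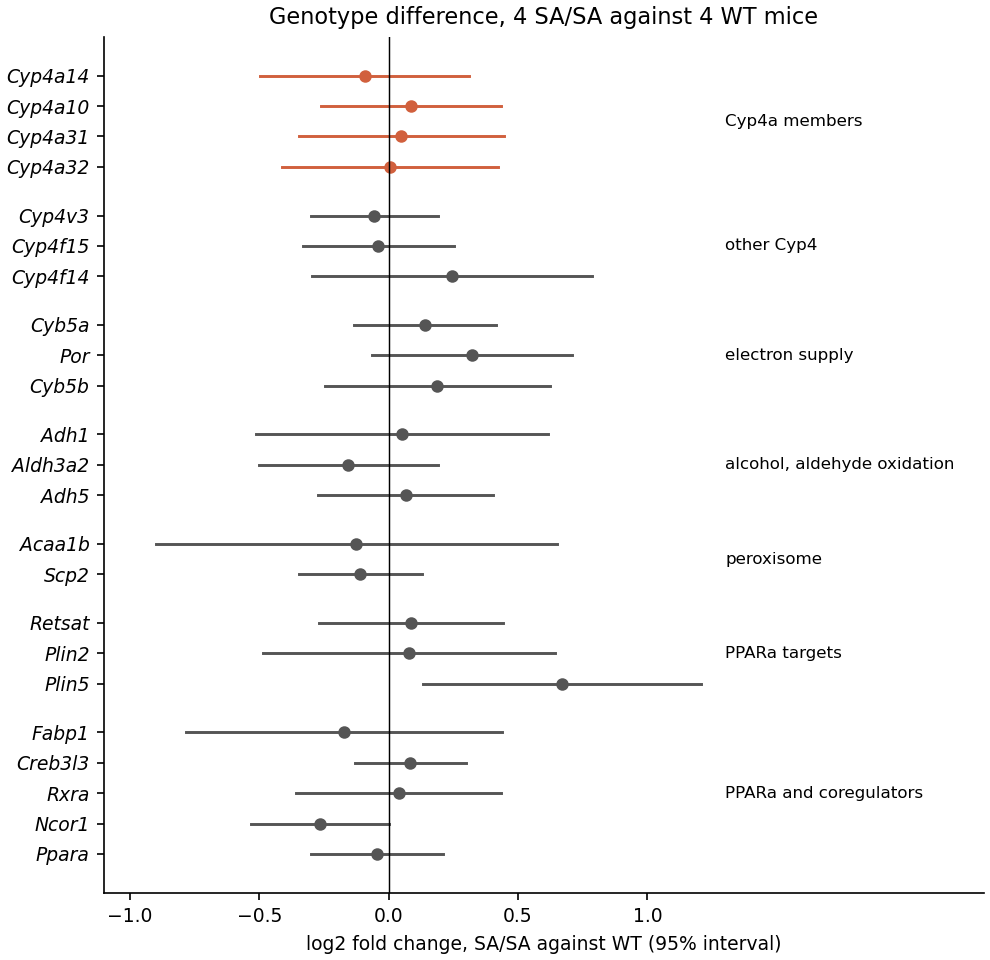
Log2 fold change of SA/SA against WT mice with its 95% interval, for the 4 tested Cyp4a genes in orange and genes of their pathway in grey. The 4 Cyp4a points lie between -0.09 and 0.09 with intervals across 0, and Plin5, the edited gene, has the point farthest to the right at 0.67 with an interval above 0, while the interval of Ncor1 ends just below 0 and those of the other genes cross it.

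The family sum was 13269, 11461, 10629 and 13504 CPM in WT replicates 1 to 4. In SA/SA replicates 1 to 4 it was 12921, 11914, 9297 and 14386 CPM. The group means were 12216 ± 1397 and 12129 ± 2144 CPM, a difference in mean log2 CPM of -0.021. Without SA/SA replicate 3 this was 0.10 and without SA/SA replicate 4 it was -0.11. As a share of all counts, the family took between 0.887% (Wilson 95% interval 0.884% to 0.890%, counting error only) in SA/SA replicate 3 and 1.47% (1.46% to 1.47%) in SA/SA replicate 4. The mice at either end of that range were both SA/SA, with every WT mouse between them. The sum of the 3 near copies Cyp4a10, Cyp4a31 and Cyp4a32, which does not depend on how reads were divided among them, was 5405 ± 990 CPM in WT and 5738 ± 687 CPM in SA/SA mice, a difference of 0.10 in mean log2 CPM.

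Within the family, Cyp4a14 made up between 45.3% and 61.9% of the sum and Cyp4a10 between 37.4% and 54.1%. Cyp4a31 took 0.35% to 0.46% and Cyp4a32 0.21% to 0.35%. The ratio of Cyp4a14 to Cyp4a10 in CPM was 1.21, 1.19, 1.65 and 1.19 in WT replicates 1 to 4 and 1.39, 1.10, 0.837 and 1.17 in SA/SA replicates 1 to 4. The extremes were WT replicate 3 and SA/SA replicate 3, both with high animal numbers, and 5 of the 8 mice lay between 1.10 and 1.21. The means of 1.31 ± 0.23 in WT and 1.12 ± 0.23 in SA/SA mice differed by less than 1 SD. For every 100 CPM of Cyp4a10 there were between 0.64 and 1.06 CPM of Cyp4a31 and between 0.46 and 0.77 CPM of Cyp4a32.

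**Figure D3:**
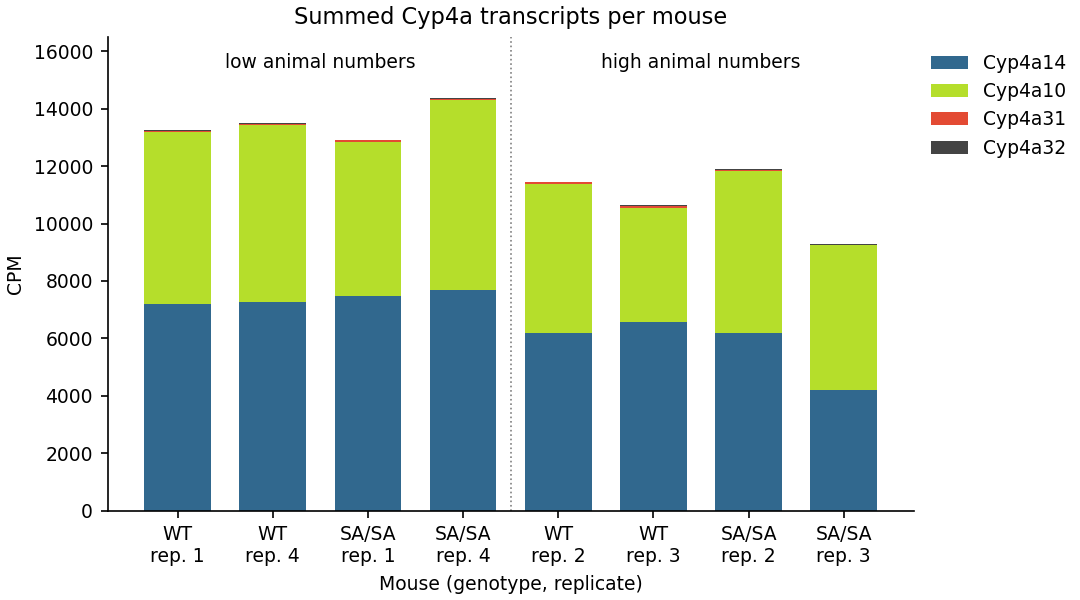
Summed CPM of the Cyp4a genes in each mouse, stacked by gene from 0, with the 4 mice of low animal numbers on the left and the 4 of high numbers on the right. Cyp4a12a and Cyp4a12b are too low to draw. The left bars run from 12921 to 14386 CPM and the right bars from 9297 to 11914 CPM, while WT and SA/SA bars interleave on each side.

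Within each range of animal numbers the genotype difference of the members had no common direction. Among low numbers, SA/SA minus WT in mean log2 CPM was 0.07 for Cyp4a14, -0.02 for Cyp4a10, 0.13 for Cyp4a31 and -0.22 for Cyp4a32. Among high numbers it was -0.32, 0.22, -0.10 and 0.28 in the same order. Each of the 4 genes thus had opposite signs in the 2 ranges, Cyp4a14 and Cyp4a31 one way and Cyp4a10 and Cyp4a32 the other. Over all 14629 genes tested, 7226 were higher in SA/SA at low and 7151 at high numbers. Of all genes, 4055 (27.7%) went the way of Cyp4a14 and Cyp4a31. By these counts a similar share went the other way, so opposite signs were common among all genes. The low-range differences of Cyp4a14 and Cyp4a10 were small, and signs turned with single mice. At low numbers 3 of the 4 were higher in SA/SA without WT replicate 1 or SA/SA replicate 1. At high numbers 3 of the 4 were higher without SA/SA replicate 3. The test of that contrast, the interaction of genotype with range, gave adjusted p values by edgeR of 0.646 for Cyp4a14 (-0.36, SE 0.26), 0.779 for Cyp4a10 (0.23, SE 0.24), 0.872 for Cyp4a31 (-0.19, SE 0.31) and 0.572 for Cyp4a32 (0.54, SE 0.31). The interaction of Cyp4a14 lay between -0.67 (unadjusted p = 0.0165) with SA/SA replicate 2 left out and -0.11 with SA/SA replicate 3 left out. That of Cyp4a31 lay between -0.61 (unadjusted p = 0.0267) with SA/SA replicate 2 left out and 0.14 with SA/SA replicate 3 left out. That of Cyp4a10 lay between 0.05 with WT replicate 3 left out and 0.44 with WT replicate 2 left out, and that of Cyp4a32 lay between 0.26 with SA/SA replicate 2 left out and 0.76 (unadjusted p = 0.0460) with SA/SA replicate 3 left out. The sizes thus rested on single mice. With all 8 mice, the smallest adjusted p of a member's interaction by edgeR, DESeq2 or limma-voom was 0.572, for Cyp4a32 by edgeR. By edgeR the interaction was called for 0 of the 4 genes and for 0 of all 14629 genes (0%). Of all genes, 1622 (11.1%) had an unadjusted p under 0.05 and 741 (5.07%) had one with a negative sign, while DESeq2 called 285 genes and limma-voom 1. The family sum differed by 0.026 among low and by -0.069 among high numbers, and the sum of the 3 near copies by -0.024 and 0.22.

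The members were also compared between the ranges of animal numbers, a comparison added after the values were seen. The family sum was 13520 ± 625 CPM in the 4 mice with low numbers and 10825 ± 1150 CPM in the 4 with high numbers (SD), without overlap. Cyp4a14 was at 7413 ± 216 CPM against 5789 ± 1070 CPM, and its lowest mouse of the low range, at 7210 CPM, was above the highest of the high range, at 6575 CPM. Cyp4a10 was at 6016 ± 509 against 4961 ± 700 CPM, Cyp4a31 at 54.5 ± 4.61 against 44.3 ± 9.39 CPM and Cyp4a32 at 36.3 ± 6.58 against 30.6 ± 6.54 CPM, each with overlap. All 4 were thus lower on average at high numbers. In a fit with genotype and range, the log2 difference of high against low was -0.36 for Cyp4a14 (SE 0.14, adjusted p = 0.334 by edgeR), -0.28 for Cyp4a10 (SE 0.13, 0.402), -0.30 for Cyp4a31 (SE 0.15, 0.459) and -0.25 for Cyp4a32 (SE 0.18, 0.593). None of the 4 was called, and Cyp4a14 alone of them had an unadjusted p under 0.05, 0.0304. Over all genes tested edgeR called 0 (0%), 1877 (12.8%) had an unadjusted p under 0.05, of which 906 (6.19%) were lower at high numbers, 1002 (6.85%) did not overlap and 486 (3.32%) were lower without overlap. SA/SA replicate 3, with its lymphocyte and plasma cell markers, has a high number, and without it the difference was -0.24 for Cyp4a14 and -0.16 for Cyp4a31. That of Cyp4a32 lay between -0.41 with SA/SA replicate 2 left out and -0.10 with WT replicate 1 left out, without WT replicate 3 that of Cyp4a10 was -0.19, and the part of the markers in these values was not tested.

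The pathway around the Cyp4a genes was read from lists, none of which had a gene called by edgeR in either direction. Plin5, the edited gene, was at 254, 194, 183 and 194 CPM in WT and at 457, 276, 192 and 386 CPM in SA/SA mice, with 3 of 4 SA/SA mice above all WT mice. Its log2 fold change was 0.67 (SE 0.24, unadjusted p = 0.0193, adjusted p = 0.993 by edgeR), with 0.92 at low and 0.29 at high animal numbers. Ppara, the receptor upstream of Cyp4a10 and Cyp4a14, was at 96.3 ± 13.2 CPM in WT and 93.3 ± 5.48 CPM in SA/SA mice, a log2 fold change of -0.05. Of 16 genes for PPARa and its coregulators, 1 had an unadjusted p under 0.05, the corepressor Ncor1, with 83.6 ± 9.71 CPM in WT and 69.5 ± 7.76 CPM in SA/SA mice (log2 fold change -0.27, unadjusted p = 0.0496, adjusted p = 0.993 by edgeR). That count of 1 was 0 in 8 of the alternatives, among them DESeq2, no filter and leaving out SA/SA replicate 3. The others named there were the fatty acid carrier Fabp1 at -0.17 (0.56 at low and -0.91 at high numbers), the fasting factor Creb3l3 at 0.08 and the PPARa partner Rxra at 0.04. The median over the 16 was -0.042, beside -0.0050 over all genes tested, and it was -0.14 at low and 0.0041 at high numbers.

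The enzymes that work with the Cyp4a proteins were measured next. Of 5 genes that supply electrons to cytochromes P450, 4 had a fold change above 0 and 0 had an unadjusted p under 0.05, with a median log2 fold change of 0.14 (0.035 at low and 0.26 at high numbers). P450 reductase, Por, was at 633 ± 110 CPM in WT and 792 ± 167 CPM in SA/SA mice (log2 fold change 0.32, adjusted p = 0.993 by edgeR, 0.20 without SA/SA replicate 3), and the cytochromes b5 Cyb5a and Cyb5b had 0.14 and 0.19. Of 5 alcohol and aldehyde dehydrogenases that act on omega hydroxy acids, 0 had an unadjusted p under 0.05, with Adh1 at 0.05 and Adh5 at 0.07. Aldh3a2, the fatty aldehyde dehydrogenase, was at -0.16 (0.21 at low and -0.56 at high numbers). The medians of the 5 were 0.21 at low and -0.056 at high numbers. Of 18 genes of peroxisomal oxidation, 0 had an unadjusted p under 0.05 and 5 were above 0, with a median of -0.11 (0.052 at low and -0.30 at high numbers). Among the most abundant of these were the thiolase Acaa1b (-0.12) and the lipid carrier Scp2 (-0.11). Over all genes tested 3.4% had such a p, and without WT replicate 2 there was 1 among the genes of electron supply and 1 among the dehydrogenases.

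Of 30 PPARa targets of fasting other than the Cyp4a genes, 1 had an unadjusted p under 0.05, Plin5, and 18 were above 0, with a median of 0.036. Among the most abundant, the lipid droplet protein Plin2 had a log2 fold change of 0.08 (0.47 at low and -0.50 at high numbers) and the retinol saturase Retsat 0.08. Within the ranges of animal numbers, 28 of the 30 were higher in SA/SA at low numbers (median 0.22) and 6 of the 30 at high numbers (median -0.18), and 24 were higher in the first and lower in the second. Over all genes 27.7% had that pattern, as had 2 of the 4 tested Cyp4a genes and 10 of the 18 peroxisomal genes. Of the 2 SA/SA mice with high numbers, 1 was SA/SA replicate 3, the library with the markers of lymphocytes and plasma cells. Without it 12 of the 30 targets were higher at high numbers (median -0.078) and 18 had the pattern, as had 1 of the 4 Cyp4a genes, 10 of the 18 peroxisomal genes and 26.2% of all genes. Without any 1 mouse, between 18 and 25 of the 30 targets had it. Acaa1b had the values 0.72 and -1.23 (-0.90 at high numbers without SA/SA replicate 3), with an interaction of -1.90 (SE 0.30, adjusted p = 0.203 by edgeR). Its SA/SA values were 4642 and 4682 CPM at low and 2301 and 1456 CPM at high numbers, while its WT values were 2536, 3161, 4272 and 4294 CPM. The lists and the members are measured on the same 8 livers, and no difference between the lists was tested.

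**Figure D4:**
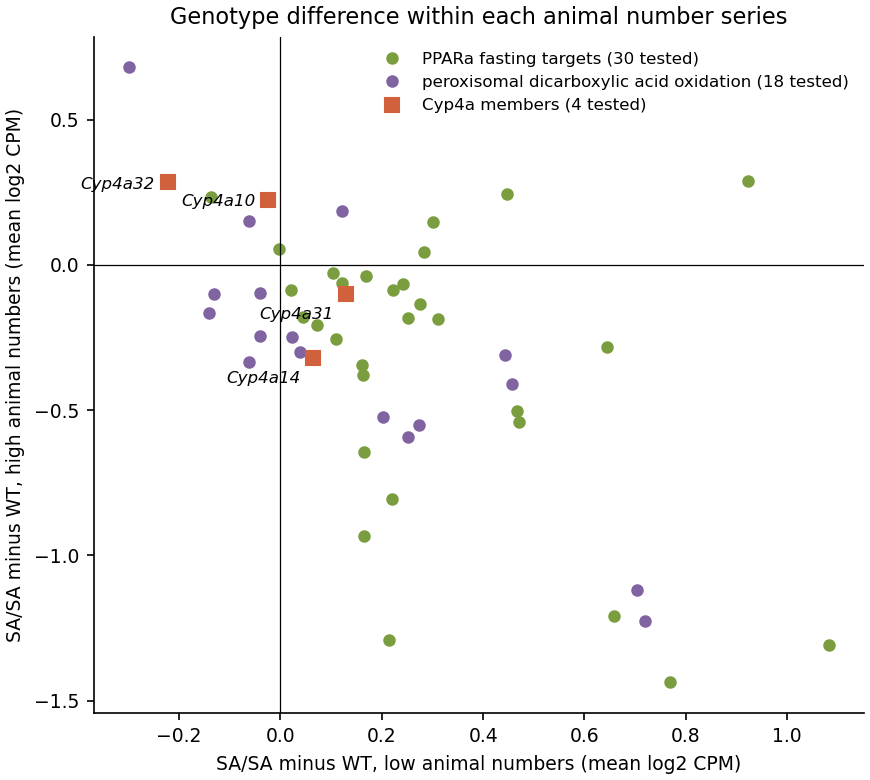
Difference in mean log2 CPM of SA/SA minus WT mice among low animal numbers (horizontal) and among high animal numbers (vertical), 1 point per gene, for PPARa fasting targets, peroxisomal genes and the 4 tested Cyp4a genes. The Cyp4a squares lie between -0.32 and 0.28 on both axes, with 2 at the upper left and 2 at the lower right, while 24 of 30 PPARa targets and 10 of 18 peroxisomal genes lie at the lower right.

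Genes of related function were likewise without a call. Of 16 other Cyp4 genes, 9 were tested, 2 were above 0 and the median was -0.056 (-0.057 at low and -0.051 at high numbers), with Cyp4v3, a fatty acid omega hydroxylase, at -0.06, Cyp4f15 at -0.04 and Cyp4f14, a leukotriene B4 hydroxylase, at 0.24 (0.075 without SA/SA replicate 3). Of 19 other P450s and epoxide hydrolases of arachidonic acid, 18 were tested with a median of -0.0036 (0.078 at low and -0.028 at high numbers). The most abundant were Cyp2c29 (0.06), Cyp2c37 (0.40, with -0.14 at low and 0.88 at high numbers) and the soluble epoxide hydrolase Ephx2 (-0.05). Because Cyp4a12a and Cyp4a12b are male forms, genes that differ between the sexes were read as well. Of 11 male-biased genes, 9 were tested, with a median of -0.045 (0.039 at low and -0.64 at high numbers). Of these Mup7, a major urinary protein, had 1.71 ± 0.79 CPM in WT and 0.584 ± 0.32 CPM in SA/SA mice (log2 fold change -1.56, unadjusted p = 0.0099, adjusted p = 0.993 by edgeR). Cyp2d9 had -0.02 (-0.65 at low and 0.71 at high numbers), Mup20 -0.39 (0.09 at low and -1.04 at high numbers) and Serpina1e 0.37. The 14 female-biased genes had a median of -0.0060 (0.31 at low and -0.11 at high numbers), with Cyp2b9 at -0.02, Cyp3a41a at 0.08 and Sult2a1 at 0.0040. The 11 genes of growth hormone signalling had a median of -0.014 (0.016 at low and -0.092 at high numbers), with the receptor Ghr at -0.04, Hnf4a at 0.18 and Igf1 at 0.06.

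The genes whose log2 CPM ran most like the family sum over the 8 mice were, among 7434 genes with a mean of at least 10 CPM, Chka (Pearson r = 0.986), Retsat (0.963), Slc45a3 (0.957), Bcor (0.946) and Lgalsl (0.931). This is a description over 8 livers in 2 ranges of animal numbers, chosen from many genes. Chka, a choline kinase, was at 47.1, 35.8, 30.0 and 54.5 CPM in WT and between 23.5 and 53.7 CPM in SA/SA mice. Like the family sum, Chka was lowest in SA/SA replicate 3. It was also higher in every mouse with a low number than in any with a high number. The other 4 genes shared both traits. As all were chosen for running like a sum with these traits, sharing them follows largely from the choice. Over all 14629 genes tested, 486 (3.32%) were lower in every mouse with a high number.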

How the data were processed

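RNA sequencing of liver was analysed for 4 WT and 4 SA/SA female mice. Libraries were stranded mRNA libraries, read as pairs of 100 bp. The values deposited by the authors are estimated counts that salmon assigned to each gene, scaled for transcript length between samples but not for library size. The submitters' processing notes name bcl2fastq, STAR, SAMtools, MultiQC, DESeq2 and GRCm38, and the salmon version, its annotation and the use of strand are not given in the sources used here. Salmon divides reads that fit several transcripts by a model, which can shift counts between Cyp4a10, Cyp4a31 and Cyp4a32 and between Cyp4a12a and Cyp4a12b.

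Estimated counts were rounded to whole numbers, filtered with filterByExpr (14629 of 45706 genes), scaled by TMM and tested with edgeR 4.0.16 (quasi-likelihood test, R 4.3.3) with Benjamini-Hochberg adjustment over all genes tested. Standard errors and 95% intervals come from the F statistic. Log2 CPM for differences within ranges of animal numbers, permutation tests and correlations uses a prior count of 2, and sums use CPM without it. The alternatives were DESeq2 1.42.0, limma-voom (limma 3.58.1), DESeq2 size factors, library size alone, TMM without the top 50 genes, other filters (none, 10 counts in every library, CPM above 1 in 4 libraries), a robust fit, blocks for replicate number and animal numbers, and each mouse left out. The comparison of high with low animal numbers and the values of lists within a range without 1 mouse were added after the data were seen. The edgeR tests were also run on simulated counts with known fold changes, and the outcome is not reported here. Coordinates and transcripts are those of GENCODE M21 (GRCm38), in which 45143 of the identifiers were found. The labels give 1 mouse per library. No library was a copy of another (chi-square per gene of at least 40.4 for every pair).

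The members and lists were chosen with earlier results of these data known. The text names the members, Plin5, Ppara, the 3 most abundant tested genes of each list, list genes at an unadjusted p under 0.05 or called in the interaction (there was none of the latter), 2 protein coding neighbours on each side and those between the members, and the 5 genes most like the family sum. A few genes that this rule selects are not reported here.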

Additional observations from a re-analysis of the deposited data

Results flagged for a closer look

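Among 22 groups of 4 mice searched over the members, their sums, Plin5 and Ppara, 1 held a mouse far from the others, which was Plin5 in WT mice. WT replicate 1 had 254 CPM of Plin5, while the other 3 WT mice lay between 183 and 194 CPM, and the gap to the nearest mouse was 0.842 of the whole range. Chance alone gives such a mouse in about 1 in 20 groups. No value of a Cyp4a gene or of the family sum stood apart in this way.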

How the results depend on the processing

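No Cyp4a gene was called in any of 156 alternative fits of the members' values, of which 145 kept the direction and 11 turned it. The number of genes called for the genotype was 0 with edgeR under every alternative tried, with limma-voom and without any 1 mouse, and 6 with DESeq2. For the interaction of genotype and animal numbers it was 285 with DESeq2 and 1 with limma-voom, and between 0 and 40 without 1 mouse, where the lone mouse left in an arm is assumed to vary like the others (40 without WT replicate 4, 5 without SA/SA replicate 2, 1 without WT replicate 3). For high against low animal numbers it was 406 with DESeq2, and between 0 and 111 without 1 mouse (111 without WT replicate 3, 1 each without SA/SA replicate 2 and replicate 4). The causes were not tested. Correlations between same-numbered WT and SA/SA mice of 0.057, 0.17, -0.11 and 0.13 do not show that the numbers pair the mice. With the replicate block 0 genes were called for the genotype. The family sum differed by -0.021 with and without that block, which had to be so with 1 mouse per genotype and replicate number. The log2 fold changes whose sign turned were all far from a call, with values of -0.033 for Cyp4a32, -0.0098 for Rxra, -0.023 for Slc45a3, -0.040 for Sult2a1 by library size alone, 0.028 for Cyp2d9, -0.022 for Plin2, -0.020 for Slc45a3 by limma-voom, 0.020 for Cyp2d9, -0.018 for Plin2, -0.022 for Slc45a3 with the replicate block and -0.015 for Plin2, -0.011 for Slc45a3 with animal numbers as a block. Without 1 mouse the range was -0.029 to 0.16 for Cyp4a10, -0.19 to 0.065 for Cyp4a14, -0.057 to 0.21 for Cyp4a31, -0.12 to 0.20 for Cyp4a32, and -0.61 to 0.14 for the Cyp4a31 interaction. For genes outside the family it was -0.35 to 0.12 for Acaa1b, -0.13 to 0.31 for Adh1, -0.0044 to 0.23 for Adh5, -0.0068 to 0.12 for Bcor, -0.15 to 0.19 for Chka, -0.11 to 0.12 for Cyp2b9, -0.034 to 0.18 for Cyp2c29, -0.24 to 0.23 for Cyp2d9, -0.060 to 0.23 for Cyp3a41a, -0.34 to 0.10 for Cyp4b1, -0.13 to 0.060 for Cyp4f15, -0.093 to 0.033 for Cyp4v3, -0.18 to 0.053 for Ephx2, -0.33 to 0.014 for Fabp1, -0.10 to 0.0064 for Ghr, -0.0052 to 0.16 for Igf1, -0.35 to 0.14 for Lgalsl, -0.16 to 0.25 for Plin2, -0.11 to 0.050 for Ppara, -0.043 to 0.20 for Retsat, -0.073 to 0.18 for Rxra, -0.16 to 0.63 for Serpina1e, -0.095 to 0.16 for Slc45a3, -0.23 to 0.25 for Sult2a1. Others kept their sign but moved by over 1.5 times, among them Por (0.20 to 0.44), Cyb5b (0.069 to 0.30), Aldh3a2 (-0.25 to -0.047), Cyp4f14 (0.075 to 0.41), Mup20 (-0.63 to -0.19) and Hnf4a (0.042 to 0.34). The family sum differed by -0.11 to 0.10 without 1 mouse. Depth did not limit Cyp4a10, Cyp4a14, Cyp4a31 or Cyp4a32, with at least 1059 counts in each library, and it limited Cyp4a12a and Cyp4a12b, with at most 19.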
